A study of Mus musculus with 6 samples.

Results

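SNORA9 and SNORA57 are small nucleolar RNAs (snoRNAs) of the H/ACA class, and the annotation behind the read pairs lists each of them at more than 1 place in the mouse genome. The 4 loci described here are ENSMUSG00000064513_SNORA9 on chromosome 11, ENSMUSG00000064570_SNORA9 on chromosome 17, ENSMUSG00000070167_SNORA57 on chromosome 19 and ENSMUSG00000065100_SNORA57 on chromosome 8. They were chosen by name, out of 26158 RNA names in the 4 libraries, because read pairs that join the loci of 1 snoRNA to each other were frequent in the ES libraries and ran mostly in 1 order. The counts of such read pairs and their order are therefore a description, with no test. Every read pair in which either fragment carries 1 of the 4 names was taken, and read pairs of a library with equal coordinates of both fragments were counted as 1.

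H/ACA snoRNAs fold into hairpins separated by short single-stranded boxes and are bound by dyskerin, NHP2, NOP10 and GAR1. The snoRNA base-pairs with ribosomal RNA (rRNA) and places the uridine that the complex turns into pseudouridine. Most mammalian snoRNAs are cut out of introns of longer host transcripts, and copies of them, many moved by retrotransposition, are scattered through the genome. A fragment can be told to come from 1 copy only where it covers a base at which the copies differ.

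The read pairs came from MARIO, in which RNAs crosslinked to proteins are joined through a biotin-tagged linker into a chimera. The fragment before the linker is RNA1 and the fragment after it is RNA2, so the linker sits between the 3′ end of RNA1 and the 5′ end of RNA2. ES-1 and ES-2 were 2 assays on embryonic stem (ES) cells of strain 129/Ola crosslinked with ultraviolet light at 254 nm. Their labels give fragments of about 1000 nt, while the study's methods give a range up to 2000 nt for ES-1. ES indirect used the same cells and strain, formaldehyde and EGS as crosslinkers and sonication in place of RNase I to make fragments of about 1000 nt, and MEF used mouse embryonic fibroblasts of strain C57Bl/6 crosslinked at 254 nm with fragments of about 300 nt. The labels name no transgene, drug or genotype for any of the 4 libraries, and give no age or number of animals for the fibroblasts. To remove rRNA, ES-1 and ES indirect were treated with a duplex-specific nuclease, while a depletion kit served for MEF and ES-2. Both ES assays thus differ in rRNA removal, ES indirect in fragmentation as well as crosslinker, and MEF in strain and fragment size as well as cell type, and within each contrast these cannot be told apart. Both brain libraries of the series were not analysed here.

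The sequences of the 4 loci are shown because every result below turns on the few bases that separate them. They were read 5′ to 3′ from the NCBIM37 genome (mm9) at chr11:6428036-6428168 (minus strand), chr17:62806336-62806469 (minus), chr19:8963028-8963175 (minus) and chr8:113447016-113447163 (plus). Capitals mark the bases at which the copies of 1 snoRNA differ.
ENSMUSG00000064513_SNORA9: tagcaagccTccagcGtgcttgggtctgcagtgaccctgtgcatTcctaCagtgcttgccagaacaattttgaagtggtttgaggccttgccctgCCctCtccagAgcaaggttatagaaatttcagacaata
ENSMUSG00000064570_SNORA9: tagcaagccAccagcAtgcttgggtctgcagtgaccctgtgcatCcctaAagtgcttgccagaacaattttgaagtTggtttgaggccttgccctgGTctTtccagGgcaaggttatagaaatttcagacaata
ENSMUSG00000070167_SNORA57: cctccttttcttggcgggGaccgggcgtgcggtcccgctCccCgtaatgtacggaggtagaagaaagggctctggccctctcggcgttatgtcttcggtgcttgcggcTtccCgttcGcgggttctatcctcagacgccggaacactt
ENSMUSG00000065100_SNORA57: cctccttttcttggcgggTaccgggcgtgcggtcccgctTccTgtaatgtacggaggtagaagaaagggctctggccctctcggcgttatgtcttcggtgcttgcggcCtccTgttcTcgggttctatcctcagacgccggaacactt

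SNORA9 was 133 nt long on chromosome 11 and 134 nt on chromosome 17, and the copies were 93.3% identical. With positions counted from 1 at the 5′ end of the chromosome 11 locus, and its base given first, they differed by T10A, G16A, T45C, C50A, C96G, C97T, C100T and A106G and by 1 added T. No difference lay in the last 27 nt, so a fragment inside that stretch carries nothing that could place it. The SNORA57 loci were both 148 nt long and 95.9% identical. Counted the same way on the chromosome 19 locus, they differed by G19T, C40T, C43T, T109C, C113T and G118T, and their last 30 nt were the same. The chromosome 8 locus was followed in the genome by a run of 14 A, and the chromosome 19 locus by a pair of A and then C.

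The genes around the loci also differed. The chromosome 11 locus overlapped Gm11974, a lincRNA on the same strand that RefSeq (GRCm38.p6) calls Snhg15, a snoRNA host gene, and 1 of its 4 transcripts had an exon over the snoRNA. No gene was annotated within 2000 bp of the chromosome 17 locus. The chromosome 19 locus lay 14 bp from a miRNA annotated as AC129217.1 and 218 bp from 1810009A15Rik, a protein-coding gene on the opposite strand. The chromosome 8 locus lay in an intron of St3gal2, a sialyltransferase gene on the same strand, and opposite to the lincRNA Gm17642. Further loci carry the same names: SNORA9 also on chromosomes 8 (95.6% identical to the chromosome 11 locus) and X (75.4%), and SNORA57 on chromosome 5 (70.2% identical to the chromosome 19 locus).

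The libraries held from 474526 (MEF) to 3302146 (ES indirect) read pairs, of which 373978 to 2310134 were distinct, and ribosomal RNA was on a side of 46.3% (MEF) to 82.4% (ES-1) of the distinct ones. ES cell markers (Pou5f1, Sox2, Nanog, Zfp42, Dppa5a and Tdgf1) were 296 to 2051 fragment ends in the ES libraries and 20 in MEF. Fibroblast markers (Col1a1, Col1a2, Col3a1, Fn1, S100a4 and Thy1) were 644 ends in MEF and 287 to 1187 in the ES libraries. In the ES libraries they were mostly Fn1 (254 to 1135), and S100a4 was at 0 in ES-2. The marker ends were counted before read pairs with equal coordinates were collapsed. Relative to all read pairs of a library, fibroblast markers were highest in MEF and ES cell markers were lowest there. Distinct read pairs with a SNORA9 or SNORA57 locus numbered 29582 for ES-1 and 7755 for ES-2, against 524 for the formaldehyde library and 1585 for MEF. Set against the distinct read pairs of each library, ES-1 was the highest and ES indirect the lowest. ES indirect and MEF had 1 library each, so a test against them would rest on the spread of the ES assays alone, and differences between groups were not tested. Fewer cells and less RNA per cell cannot be told apart in such libraries.

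The loci of 1 snoRNA differed in the side of the linker on which they were found. The chromosome 17 locus of SNORA9 was almost always RNA1. ES-1 had it there in 1596 of 1604 fragments (99.5%), ES-2 in 267 of 270 (98.9%), ES indirect in 2 of 2 and MEF in 9 of 12. The chromosome 11 locus was RNA1 in 44.5% of 13830 fragments of ES-1, 44.4% of 3541 of ES-2, 32.6% of 129 of ES indirect and 30.02% of 403 of MEF. The loci were thus far apart in both ES assays, while ES-1 and ES-2 differed by less than 1 percentage point at each. The chromosome 19 locus of SNORA57 leaned to RNA1 in the ultraviolet ES libraries, at 65.2% of 14023 fragments in ES-1 and 62.3% of 3900 in ES-2, against 50.9% of 450 in ES indirect and 33.2% of 864 in MEF. The chromosome 8 locus leaned to RNA2, with an RNA1 share of 25.4% over 2432 fragments of ES-1, 45.2% over 438 of ES-2, 14.95% over 107 of ES indirect and 17.2% over 407 of MEF. Both SNORA57 loci were lower in MEF than in ES-1 and ES-2, and the chromosome 8 share of ES-2 (95% Wilson interval 40.6 to 49.9%) lay above that of ES-1 (23.7 to 27.1%). All intervals cover counting error only. The shares count fragments of both strands. At chromosome 8, 131 of 198 RNA1 fragments of ES-2 and 32 of 70 of MEF lay on the snoRNA strand, against 611 of 617 of ES-1. All 240 (ES-2) and 337 (MEF) RNA2 fragments there did, so on that strand the RNA1 shares of ES-2 and MEF are lower than given.

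**Figure D1:**
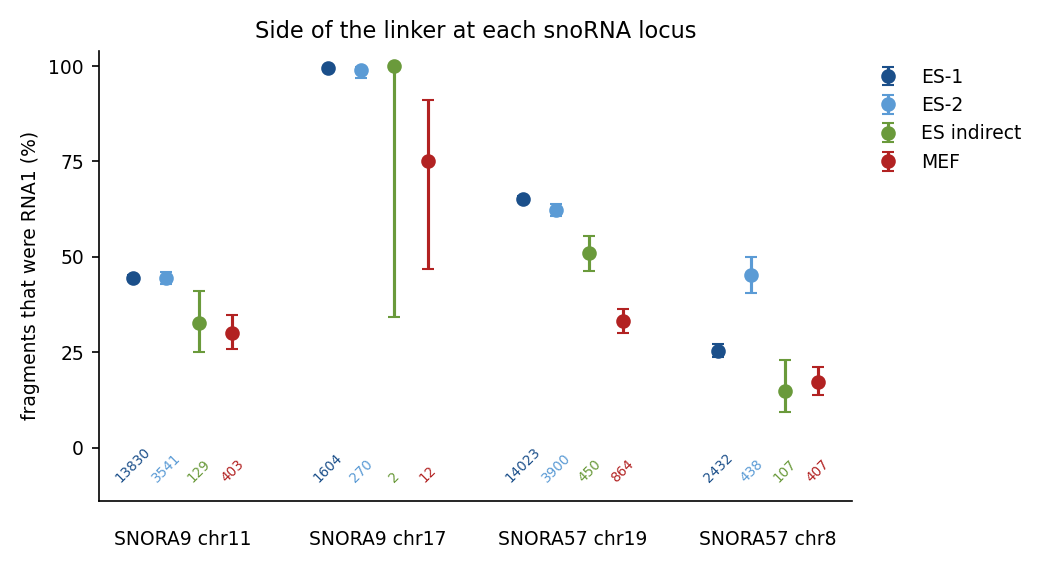
Share of the fragments of each locus that were RNA1, in percent, for 4 libraries. Points are the shares over distinct read pairs, bars their 95% Wilson intervals and the small numbers the fragments counted. The chromosome 17 locus sits at 75% or more in all 4 libraries and the chromosome 8 locus below 50%. Fragments of both strands are counted.

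The strand of RNA1 fragments set the chromosome 8 locus apart in ES-2 and MEF. RNA1 fragments lay on the strand of the snoRNA in 99.4% (ES-1) and 92.6% (ES-2) of cases at the chromosome 11 locus, and in 100% of 1596 and 267 cases at the chromosome 17 locus. At the chromosome 8 locus this share was 99.0% of 617 in ES-1, 66.2% of 198 in ES-2 and 45.7% of 70 in MEF, and 16 of 16 fragments of ES indirect lay on it. Of the 38 MEF fragments on the opposite strand, 28 were joined to an RNA2 fragment of the same locus. No MEF read pair joined the chromosome 8 locus to itself with both fragments on the strand of the snoRNA. Values on positions and bases below use only fragments on the strand of the snoRNA.

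SNORA9 read pairs that joined the chromosome 17 locus with the chromosome 11 locus all had chromosome 17 as RNA1. ES-1 held 400 of them, ES-2 held 47, the indirect library 1 and MEF 0, and the reverse order was seen 0 times in each library. In ES-1 and ES-2 merged the reverse order was 0 of 447, where 3 counts would be 0.671%. This sets no limit, since the loci were chosen for this order. Chromosome 17 was RNA2 in only 11 fragments of the merged libraries, so few read pairs could have shown the reverse order. SNORA57 read pairs ran mostly from chromosome 19 (RNA1) to chromosome 8 (RNA2), but not all did. This order made up 400 of 448 read pairs of ES-1 (89.3%, interval 86.1 to 91.8%), 44 of 56 of ES-2 (78.6%, 66.2 to 87.3%), 41 of 46 of ES indirect (89.1%, 76.96 to 95.3%) and 2 of 6 of MEF (33.3%, 9.68 to 70.001%). The 3 ES libraries overlapped in their intervals, and MEF held too few read pairs to give an order.

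Read pairs that joined the chromosome 11 or the chromosome 19 locus with itself were commoner than those between loci. For chromosome 11 ES-1 held 676, ES-2 held 117, the indirect library 19 and MEF 15, while for chromosome 17 ES-1 held 1 and the other libraries 0. For chromosome 19 ES-1 held 729, ES-2 held 169, the indirect library 96 and MEF 49. For chromosome 8 the counts were 14, 0, 2 and 28 in the same order of libraries, so for this locus and for chromosome 17 they were under those between loci in the ES libraries. All these counts include both strands. In MEF, both fragments lay on the snoRNA strand in only 6 of the 15 read pairs within chromosome 11 and 14 of the 49 within chromosome 19. In ES-1 they did so in 675 of 676 and 727 of 729. Outside the family the chromosome 17 locus was RNA1 in 99.3% of 1419 read pairs and the chromosome 11 locus in 45.5% of 15181 (ES merged). For SNORA57 these shares were 65.5% of 15623 read pairs for chromosome 19 and 31.7% of 2338 for chromosome 8. The chromosome 8 share differed between the assays, at 28.4% in ES-1 (26.4 to 30.4%) and 48.7% in ES-2 (43.7 to 53.7%). Of these RNA1 fragments, 551 of 555 in ES-1 but 121 of 186 in ES-2 lay on the snoRNA strand.

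Other snoRNAs with annotated copies gave the following values side by side, in ES-1 and ES-2 merged. SNORA63 (chromosomes 16 and 4) had 97.7% of 355 read pairs between its loci in the commoner order, SNORA4 (chromosomes 16 and X) 99.1% of 352, and SNORA81 (chromosomes 16 and 15) 58.1% of 1468. A strong order was thus also present in SNORA63 and SNORA4. The SNORA9 locus on chromosome 8 was joined to chromosome 11 as RNA1 in 105 read pairs and as RNA2 in 6, and the locus on chromosome X in 35 and 11. For chromosome X the order differed between the assays, with 28 and 3 read pairs of ES-1 and 7 and 8 of ES-2. The chromosome 5 locus of SNORA57 was joined to a chromosome 19 or chromosome 8 locus in 0 read pairs of all 4 libraries.

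In ES-1 and ES-2 the positions joined by the linker between loci were narrow in SNORA9 and, from chromosome 19 to chromosome 8, wide in SNORA57. In the 447 SNORA9 read pairs between loci (ES merged), RNA1 ended within 2 nt of the 3′ end of the snoRNA in 85.7% (ES-1 86.8%, ES-2 76.6%), and RNA2 began within 2 nt of its 5′ end in 48.3%. The commonest junction joined position 133 to position 1 (127 read pairs, 28.4%), followed by 133 to 15 (44) and 133 to 13 (37). The 792 read pairs within the chromosome 11 locus had nearly the same pattern: 77.1% of RNA1 fragments ended at the 3′ end, 52.1% of RNA2 fragments began at the 5′ end, and the junction from 133 to 1 held 225 read pairs (28.4%). In the 444 SNORA57 read pairs from chromosome 19 to chromosome 8, RNA1 ended at the 3′ end in 8.33% (ES-1 7.75%, ES-2 13.6%) and RNA2 began at the 5′ end in 5.86%, and there were 392 distinct junctions, against 69 in SNORA9. The commonest RNA2 start was position 49 (39 read pairs), and 61.0% of these read pairs held overlapping stretches of the snoRNA. In the 56 from chromosome 8 to chromosome 19, RNA1 ended at the 3′ end in 28.6% and RNA2 began at the 5′ end in 26.8%. Joined to RNAs outside the family, chromosome 19 RNA1 fragments ended at the 3′ end in 30.4% of 8009 in ES-1 but 67.9% of 2170 in ES-2. At chromosome 11 these shares were 62.4% and 78.0%. Within the chromosome 19 locus 22.5% of 894 read pairs ended at the 3′ end (ES-1 18.8%, ES-2 38.3%) and 15.5% began at the 5′ end (ES-1 12.7%, ES-2 28.1%), with 44.0% overlapping. The other libraries held few such read pairs and did not show the 3′ peak of SNORA9. Within the chromosome 11 locus 2 of 19 RNA1 fragments of ES indirect and 0 of 6 of MEF ended at the 3′ end, with the commonest ends at position 81 (3 of 19) and position 79 (3 of 6), while 10 of 19 and 4 of 6 RNA2 fragments began at the 5′ end. Within the chromosome 19 locus 8 of 14 RNA1 fragments of MEF ended at position 88.

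**Figure D2:**
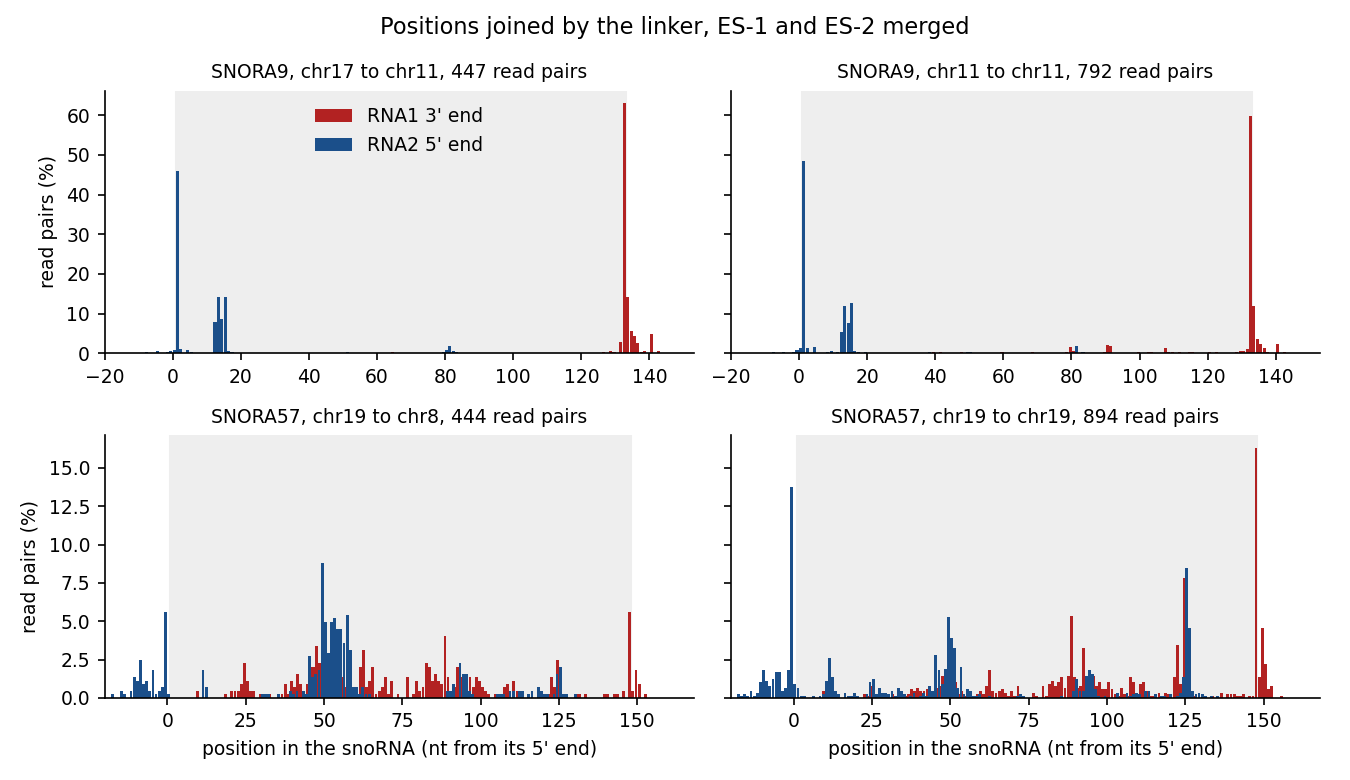
Positions of the 3′ end of RNA1 (red) and the 5′ end of RNA2 (blue) along the snoRNA, as percent of read pairs, in ES-1 and ES-2 merged. The grey field is the annotated snoRNA. SNORA9 shows the same 3′ peak at position 133 and 5′ peak at position 1 between loci and within the chromosome 11 locus. From chromosome 19 to chromosome 8 SNORA57 is spread along the molecule. Within the chromosome 19 locus, position 148 held 16.3% of RNA1 ends and position -1 held 13.8% of RNA2 starts.

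Where a SNORA9 RNA1 fragment was placed depended on its length. Among RNA1 fragments that ended at the 3′ end of SNORA9, chromosome 17 took 46.0% of the 250 fragments under 20 nt, 48.7% of 852 of 20 to 24 nt and 49.7% of 2233 of 25 to 29 nt (ES merged). It took 2.81% of 1386 fragments of 30 to 49 nt and 0.249% of 2010 of 50 nt or more (ES-1 0.0663%, ES-2 0.798%). The share fell once fragments reached past the 27 nt that the copies share, and it did so in both assays: at 25 to 29 nt ES-1 gave 49.97% and ES-2 47.4%, and at 30 to 49 nt they gave 2.91% and 2.59%. Of the 1863 chromosome 17 RNA1 fragments, 98.7% began inside that stretch, against 24.8% of 7571 at chromosome 11. Some of these ran past the 3′ end, with lengths up to 36 and 46 nt, and the first bases after it are the same at both loci. The stretch, which carries the 3′ end that joins the linker, is as follows.
SNORA9 shared 3' stretch: gcaaggttatagaaatttcagacaata

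The same sequence was also placed on both loci, although the study's methods describe each fragment as having a single place in the genome, and the sources used here do not explain this. Of 297 distinct RNA1 sequences placed on chromosome 17, 149 were placed on chromosome 11 as well, and they held 2915 of the 3108 chromosome 17 read pairs before collapsing and 2999 of the 11357 at chromosome 11. The few chromosome 17 RNA1 fragments that reached a differing base carried the chromosome 11 base at 58 of 60 such bases (1 had the chromosome 17 base). At chromosome 11, 99.9% of 20122 differing bases in RNA1 and 99.8% of 40255 in RNA2 were those of chromosome 11. By the majority of differing bases in a fragment, 0 of 17 chromosome 17 RNA1 fragments and 0 of 5 RNA2 fragments were of the chromosome 17 copy, while all 5603 RNA1 and 9616 RNA2 fragments of chromosome 11 that could be decided were of the chromosome 11 copy. No fragment with a majority of chromosome 17 bases was found at either SNORA9 locus in ES-1 or ES-2, which says nothing about the fragments inside the shared stretch. That majority leaves out the added T and the bases past the ends of the snoRNA. With whole fragments matched to each copy and its genomic flank, 5 of 20 decided chromosome 17 RNA1 fragments fit chromosome 17 better. All 5 were among the 14 of ES-1, and the 6 of ES-2 fit chromosome 11 better.

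**Figure D3:**
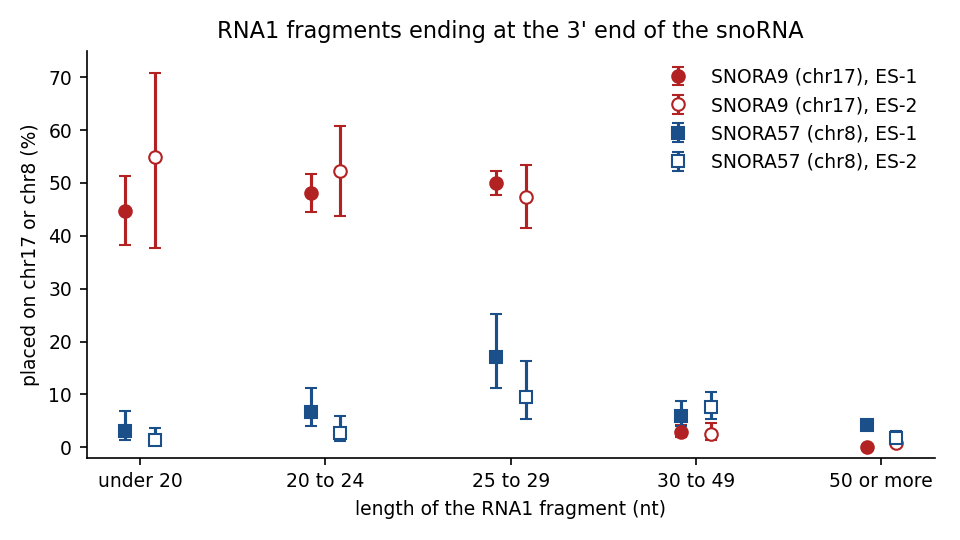
Share of RNA1 fragments ending at the 3′ end of the snoRNA that were placed on chromosome 17 (SNORA9) or chromosome 8 (SNORA57), in percent, against fragment length in nt. Filled points are ES-1, open points ES-2 and bars 95% Wilson intervals. SNORA9 sits between 44.7 and 54.8% up to 29 nt and at 2.91% or less from 30 nt on, and SNORA57 (squares) lies between 1.28 and 17.1% at all lengths.

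SNORA57 fragments were divided between the loci in another way, in which no sequence was placed on both. Whole fragments, including bases past the ends of the snoRNA, were matched to each copy with its genomic flank. RNA1 fragments that matched both copies equally were all placed on chromosome 8 where they had no mismatch (496 on chromosome 8, 0 on chromosome 19), and nearly all on chromosome 19 where they had 1 or more edits (3 and 1339). RNA2 fragments that matched both equally went the opposite way: without a mismatch 426 were on chromosome 19 and 1 on chromosome 8, and with 1 or more edits 0 and 156. The same division was present in MEF, with 31 on chromosome 8 and 0 on chromosome 19 for RNA1 without a mismatch and 136 and 0 for RNA2 with edits. An edit here is a base changed, added or missing against the chromosome 19 copy. Over both loci, 39.3% of 12259 RNA1 fragments had 1 edit (ES-1 35.5%, ES-2 54.02%), against 18.5% of 8385 RNA2 fragments (ES-1 20.3%, ES-2 11.5%). Split by locus, 41.6% of the RNA1 and 4.41% of the RNA2 fragments at chromosome 19 had 1, and at chromosome 8 2.43% and 62.1%. The shares at a single locus thus follow the division by edits given above. SNORA9 also had more RNA1 than RNA2 fragments with 1 edit, counted against the chromosome 11 copy. Over both SNORA9 loci the shares were 68.7% of 9434 RNA1 and 22.3% of 9652 RNA2 fragments.

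RNA2 fragments that matched the chromosome 19 copy better were also divided by edits. Without a mismatch 67 of 5246 were on chromosome 8 (1.28%; ES-1 1.52%, ES-2 0.428%), and with 1 or more edits 1610 of 2336 were (68.9%), with shares of 70.2% and 59.7% in the ultraviolet ES assays, 61.5% in ES indirect and 59.0% in MEF. By the same whole-fragment match, 2 of 5461 RNA1 fragments with edits that matched chromosome 19 better were on chromosome 8. This match counts the bases past the 3′ end, where a run of A matches chromosome 8, and so differs from the majority of differing bases within the snoRNA used below. An exact match to the chromosome 19 sequence was held by 88.5% of 6331 RNA2 fragments placed on chromosome 19 and by 3.31% of 2054 placed on chromosome 8.

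**Figure D4:**
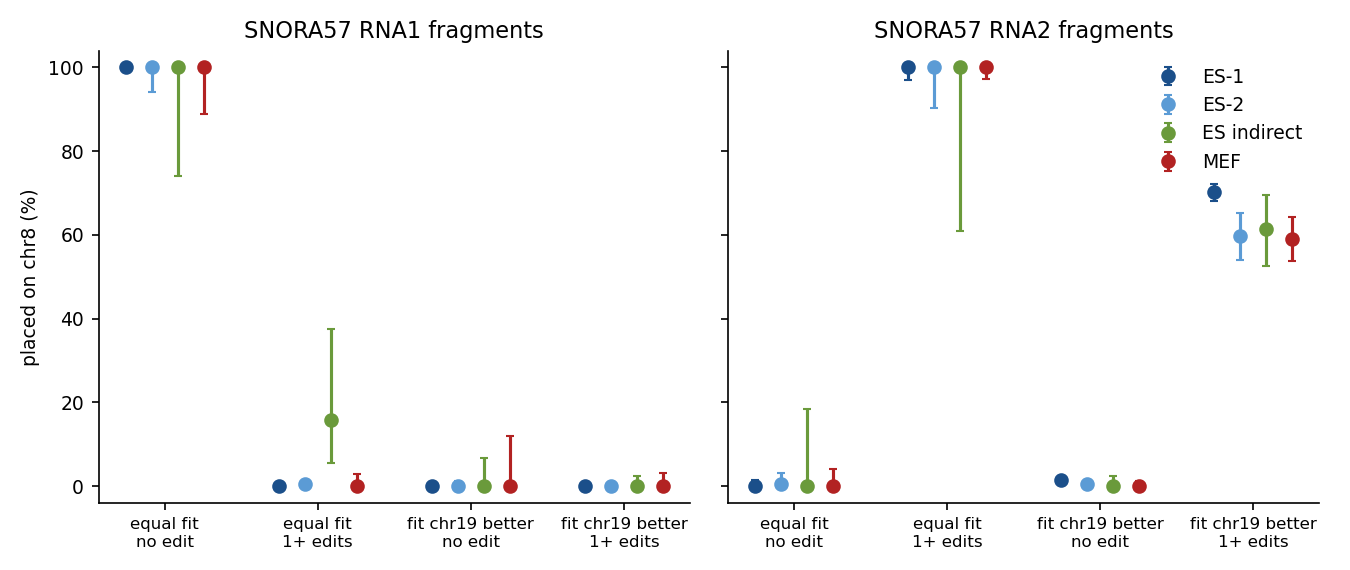
Share of SNORA57 fragments placed on chromosome 8, in percent, by side, by which copy the bases matched and by whether the fragment had an edit, for 4 libraries with 95% Wilson intervals. RNA1 fragments of equal fit without an edit are all at 100% and RNA2 fragments of equal fit with an edit are all at 100%.

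The differing bases within SNORA57 were then read alone, without the bases past its ends. RNA2 fragments placed on chromosome 8 carried the chromosome 19 base at 96.8% of 5631 differing bases (96.8% in ES-1, 96.6% in ES-2 and 97.6% in MEF). By majority, 39 of 1905 such fragments were of the chromosome 8 copy (2.05%), and 56 of 161 RNA1 fragments (34.8%), while the other 105 were of the chromosome 19 copy. With at least 2 differing bases read, the RNA1 share was 23.3% of 120. By the whole-fragment match, which counts the run of A, 241 of 243 decided chromosome 8 RNA1 fragments fit chromosome 8 better (ES-1 175 of 176, ES-2 66 of 67). Another 499 of the 742 on the snoRNA strand fit both copies equally. For chromosome 8 RNA2 the match gave 220 of 1897, and 291 of 10178 decided chromosome 19 RNA1 fragments fit chromosome 8 better. Chromosome 8 RNA1 fragments of ES-1 carried the chromosome 8 base in 28 of 30, 22 of 26 and 25 of 27 cases at positions 19, 40 and 43, but in 7 of 86, 8 of 87 and 9 of 95 at positions 109, 113 and 118. ES-2 held no fragment that read positions 19, 40 or 43, and had the chromosome 8 base in 2 of 13, 2 of 13 and 20 of 38 at the 3 later positions. The change along the molecule is therefore a value of ES-1 alone, and at position 118 the assays differed. Of the fragments placed on chromosome 19, 9927 of 9947 RNA1 and 5869 of 5869 RNA2 fragments had a majority of chromosome 19 bases. Of the RNA1 fragments placed on chromosome 8, a majority of chromosome 8 bases was held by 36 of ES-1 and 20 of ES-2, and those of ES-2 rested mostly on position 118 alone. Of those placed on chromosome 19, 14 and 6 held such a majority.

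**Figure D5:**
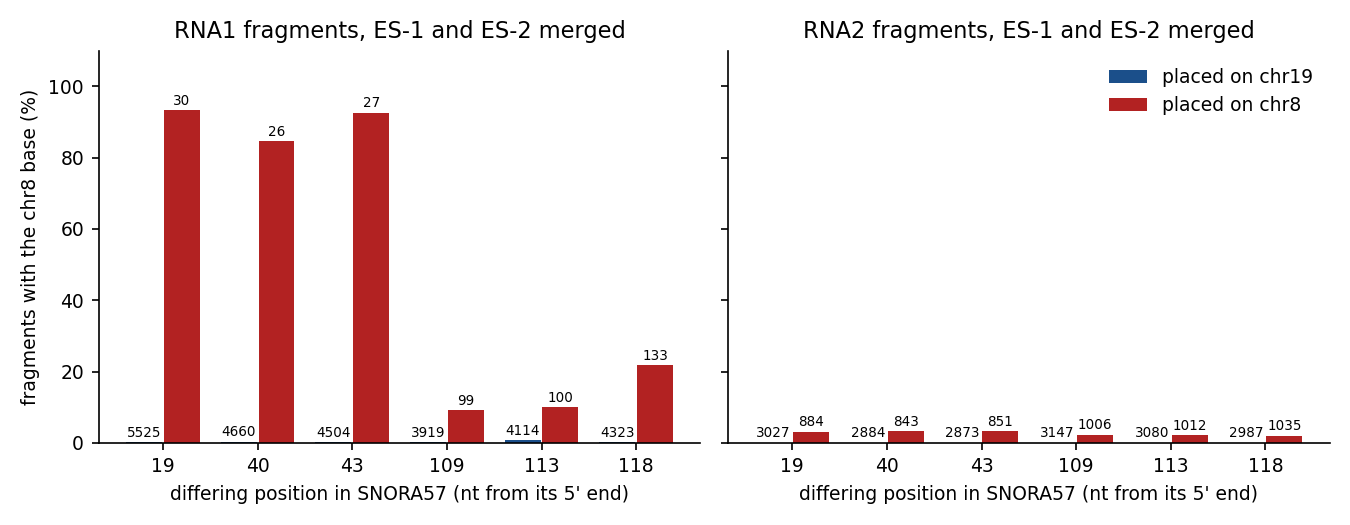
Share of SNORA57 fragments with the chromosome 8 base, in percent, at the 6 positions where the loci differ (nt from the 5′ end), in ES-1 and ES-2 merged. Blue bars are fragments placed on chromosome 19, red bars those placed on chromosome 8, and the numbers over them the fragments read at that position. Chromosome 8 bases reach 84.6 to 93.3% at the 5′ positions of RNA1 fragments placed on chromosome 8, which ES-1 alone read, and stay at 3.32% or less in RNA2.

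Bases after the 3′ end of SNORA57 separated the placements further. The 20 nt that follow the snoRNA in the genome are shown because they hold the run of A.
ENSMUSG00000070167_SNORA57 20 nt after the 3' end: aaccgtgcagaaatgtagct
ENSMUSG00000065100_SNORA57 20 nt after the 3' end: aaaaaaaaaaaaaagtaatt
Among fragments that reached at least 3 bases past the 3′ end, a run of A followed in 173 of 177 RNA1 (97.7%) and 186 of 199 RNA2 fragments (93.5%) placed on chromosome 8. The median run was 6 A in RNA1 and 5 A in RNA2, and the longest 14 and 12. Of the 173 RNA1 fragments with a run, 98 held a majority of chromosome 19 bases within the snoRNA, 2 of chromosome 8 bases and 73 could not be decided (17, 1 and 28 of the 46 in ES-2). Of the 186 RNA2 fragments, 180 held chromosome 19 bases, 0 chromosome 8 bases and 6 could not be decided. At chromosome 19, 343 of 658 RNA1 fragments (52.1%) also had a run of A, with a median of 4, and 0 of 42 RNA2 fragments did. ES-1 and ES-2 gave 127 of 130 and 46 of 47 for chromosome 8 RNA1 fragments. MEF held no chromosome 8 fragment that reached so far.

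Most SNORA9 read pairs between loci could not be put to copies by their bases, while most from chromosome 19 to chromosome 8 of SNORA57 could. Of the 447 SNORA9 read pairs, 444 had an RNA1 without a deciding base and an RNA2 of chromosome 11, 2 had chromosome 11 bases on both sides and 1 could not be decided on either side. Of the 444 SNORA57 read pairs named chromosome 19 to chromosome 8, 392 carried chromosome 19 bases on both sides (88.3%, with 353 from ES-1 and 39 from ES-2), and 2 carried chromosome 19 bases in RNA1 and chromosome 8 bases in RNA2. Of the 56 named chromosome 8 to chromosome 19 on the snoRNA strand, 45 had an undecided RNA1 (43 of them with chromosome 19 bases in RNA2), 7 had chromosome 19 bases on both sides and 2 chromosome 8 bases in RNA1 with chromosome 19 bases in RNA2. Over all read pairs decided on both sides, 5 of SNORA57 joined different copies. For SNORA9 the count was 0, which says nothing about the 444 with an undecided RNA1.

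Outside the family, the share of rRNA among partners differed between the sides of the linker at chromosomes 11 and 19. Taken over both sides, rRNA was the partner in 55.1% of 15181 read pairs of the chromosome 11 locus and 76.3% of 1419 of chromosome 17 (ES merged). ES-1 and ES-2 gave 57.3% and 46.9% at chromosome 11. Over all distinct read pairs rRNA was on a side of 82.4% (ES-1) and 81.3% (ES-2). That is another measure than a partner share, so a high rRNA share is not shown for these loci. As RNA1 alone the merged shares were 77.2% (interval 76.2 to 78.2%) and 76.7% (74.4 to 78.8%), which overlap, against 36.6% for chromosome 11 as RNA2. Among RNA1 fragments that began inside the shared 27 nt, rRNA was the partner of 78.7% at chromosome 11 and 76.6% at chromosome 17. Other H/ACA snoRNAs were the partner of 7.42% and 8.51% of them (ES-1 8.54% and 9.39%, ES-2 0.957% and 3.74%). For SNORA57 the shares over both sides were 61.7% of 15623 at chromosome 19 and 46.6% of 2338 at chromosome 8. As RNA2 they were 38.9% (37.6 to 40.2%) and 37.6% (35.2 to 40.0%), and as RNA1 73.8% and 66.0%. The RNA1 gap was seen in ES-2 (69.6%, interval 67.7 to 71.5%, and 44.1%, 37.1 to 51.3%), where 67 of 198 chromosome 8 RNA1 fragments lay on the opposite strand, and their part in it was not tested. In ES-2 the chromosome 8 share as RNA1 also overlapped that as RNA2 (36.7% of 196, interval 30.3 to 43.7%). In ES-1 the shares were 74.9% (73.97 to 75.9%) and 73.3% (69.5 to 76.8%), which overlap.

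H/ACA snoRNAs of other families were the partner in 20.04% of chromosome 11 read pairs as RNA2 and 5.35% as RNA1, and in 20.2% and 6.52% at chromosome 19. The RNA1 shares also differed between the assays, at 6.06% (ES-1) and 2.70% (ES-2) for chromosome 11 and 7.18% and 4.15% for chromosome 19. At chromosome 8 they made up 24.7% as RNA2 (26.8% in ES-1 and 9.18% in ES-2). ES-1 was higher than ES-2 in this class at every locus with over 100 read pairs as RNA2, for example 22.6% and 10.6% at chromosome 11. Within rRNA, the large subunit name took 70.0% and the small subunit name 25.1% of the chromosome 11 read pairs, and 69.3% and 29.8% at chromosome 17. Genes for H/ACA proteins had few fragment ends in all, so their counts as partners say little: Shq1, a dyskerin assembly factor with 68 ends for ES-1 and 241 for ES-2, was joined to a locus in 1 read pair of each. Dkc1, which encodes dyskerin and had 35 and 12 ends there, Nop10, Nhp2, Gar1 and Naf1 were joined in 0 in all 4 libraries.

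Individual partners were tested with a one-sided Fisher's exact test over all read pairs between different RNAs and a partner was called where 3 or more read pairs joined it and its p, adjusted by Benjamini-Hochberg, was under 0.05. In ES merged 0.895% of all 227775 observed RNA pairs were called (in ES-1 alone 1.09%, in ES-2 alone 0.719%, and 2.54% and 0.842% in the indirect and the fibroblast library). Of the partners outside the family, 22 of 1896 were called at chromosome 11 (1.16%), 0 of 185 at chromosome 17, 4 of 1823 at chromosome 19 (0.219%) and 0 of 523 at chromosome 8. The chromosome 11 share was near that background and the chromosome 19 share under it. By assay, chromosome 11 had 15 of 1435 called in ES-1 (1.05%, near its background) and 17 of 757 in ES-2 (2.25%, above it), and chromosome 8 had 0 of 415 and 1 of 147 (0.680% in ES-2, near its background), the LINE-1 repeat L1M4, named after its value was seen. At an unadjusted p under 0.05, with any number of read pairs, 40 of the 185 partners of chromosome 17 passed (21.6%) and 74 of the 523 of chromosome 8 (14.1%), against 38.4% of all observed RNA pairs. Of the 185 partners seen with chromosome 17, 132 (71.4%) were also seen with chromosome 11, which is 132 of its 1896, and 295 of the 523 of chromosome 8 (56.4%) were among the 1823 of chromosome 19. Counted within an assay, the chromosome 17 overlap was 115 of 154 (74.7%) for ES-1 but 15 of 38 (39.5%) for ES-2, and the chromosome 8 overlap 238 of 415 (57.3%) and 56 of 147 (38.1%). No such share was computed for other RNAs, so the overlaps do not show partners particular to the copies. In ES merged, chromosome 11 had 6212 fragment ends in the test and chromosome 17 had 736, and chromosomes 19 and 8 had 5429 and 1573. The p-values treat read pairs as units, so they describe these libraries, and a call in both ES-1 and ES-2 is the check by replicate.

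At chromosome 11, 6 of the 296 partners seen in both ES assays were called in both (2.03%), against 1.38% of all 16581 RNA pairs seen in both. Since that share was near the background, the values below describe these partners only. The expected number was the product of the fragment ends of both RNAs divided by the read pairs tested. Random joining of single ends would give a smaller number, since each read pair has 2 ends. U2, the spliceosomal RNA that pairs with the branch point, had 118 and 17 read pairs (ES-1 and ES-2), 1.57 times the 85.9 expected in ES merged (adjusted p = 0.000128, Fisher's exact test). SNORA62, an H/ACA snoRNA, was called at 2 loci by the same exact test, ENSMUSG00000065041_SNORA62 with 59 and 16 read pairs (3.57 times, adjusted p = 2.55e-17) and ENSMUSG00000065269_SNORA62 with 10 and 12 (12.8 times, adjusted p = 5.24e-15). ENSMUSG00000064495_SNORA5, another H/ACA snoRNA, had 14 and 6 (3.96 times, adjusted p = 9.32e-05), and tRNA-Trp-TGG, a tryptophan tRNA, 17 and 10 (3.85 times, adjusted p = 2.48e-06, Fisher's exact test). In nearly all of these read pairs the partner was RNA1 and SNORA9 RNA2, as in 128 of 135 for U2 and 75 of 75 for ENSMUSG00000065041_SNORA62.

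The sixth partner, L1MCa, a LINE-1 repeat, had the highest fold of the 6, with 27 and 7 read pairs, 21.8 times the expected number (adjusted p = 1.74e-32, Fisher's exact test). All 34 partner fragments came from 1 place, of which the commonest interval was chr8:104155703-104155720 on the minus strand (15 read pairs), and all 34 lay within 2 edits of SNORA9. The interval is shown beside SNORA9 positions 117 to 133, with the base that differs in capitals.
L1MCa interval: agaaatttcagacaataC
SNORA9 stretch: agaaatttcagacaata
Among all 5608 chromosome 11 read pairs with a named partner other than rRNA, 108 (1.93%) had a partner fragment so close to SNORA9, and among the 443 of called partners 53 (11.96%) did. They formed the majority in 5 of the 22 called partners (L1MCa, AT_rich, Anxa6, Cacna1a and Csgalnact1, named after their values were seen). With such read pairs left out, an alternative chosen after seeing the data, 17 partners were called.

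SNORA57 had no partner called in both ES assays, of 279 seen in both at chromosome 19 and 39 at chromosome 8. Of those called in ES merged at chromosome 19 and seen in both, Pwp1, which encodes a nucleolar WD-repeat protein, had 8 and 4 read pairs, all at 1 place and with Pwp1 as RNA1 (2.57 times the expected 4.66, adjusted p = 0.0242, Fisher's exact test). Supt16h, a subunit of the FACT histone chaperone, had 2 and 1 (7.27 times, adjusted p = 0.0421, same exact test). None of the Pwp1 or Supt16h fragments was within 2 edits of SNORA57. In MEF, where 0.842% of all RNA pairs were called, 2 of 148 partners were called at chromosome 11 (1.35%), 2 of 248 at chromosome 19 (0.806%) and 2 of 131 at chromosome 8 (1.53%). Those of chromosome 11 were ENSMUSG00000064880_SNORA63, 6.63 times the expected number, and the SINE repeat MIR, 4.71 times, with 4 read pairs each. Those of chromosome 19 were ENSMUSG00000064853_SNORA38, 7.83 times, and ENSMUSG00000065200_SNORA65, 8.67 times, with 3 each. Those of chromosome 8 were Kalrn with 4, 6.11 times, and Dtymk with 3, 5.48 times. In each of these the partner was RNA1. ES indirect had 0 called partners at the 4 loci by Fisher's exact test, since none had 3 or more read pairs. At an unadjusted p under 0.05, which 63% of all its observed RNA pairs passed, it had 28 of 34 at chromosome 11, 1 of 1 at chromosome 17, 48 of 88 at chromosome 19 and 11 of 19 at chromosome 8.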

How the data were processed

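The authors removed PCR duplicates with a random barcode, split samples, found the linker and, per the study's methods, kept chimeras whose fragments both had a unique place in mm9. The deposited files hold 1 read pair a line, with coordinates, strand, sequence and annotated RNA of both fragments, and no measured value. The submitters' processing notes name NCBIM37 and TopHat2 2.1.1, without saying which tool placed the fragments. Fragments placed on a member locus were aligned to both copies (edlib 1.3.9.post1 in Python 3.11.15, with 150 nt of flank), and their bases were read where the copies differ. Shares have 95% Wilson intervals. Partners were tested with SciPy 1.17.1 over all RNAs, leaving out rRNA, unannotated fragments and RNA pairs within 2000 bp. On simulated data of ES-2, 50 of 50 pairs with 3 added read pairs were called, and 0.0849% of 113031 others. The added read pairs joined names drawn at random from 16284 RNAs, so this recovery does not cover loci with many fragment ends. In ES-2 itself, 17 of 95 partners with 3 or more read pairs were called at chromosome 11 and 2 of 77 at chromosome 19. The fragment alignment chose the right copy for 987 (SNORA9) and 855 (SNORA57) of 1000 simulated fragments and the wrong one for 0 and 1, and the others fit both copies equally. These fragments were drawn at random positions inside the snoRNA and had no run of A. Their error rate thus does not cover the real fragments inside the shared stretch or those with a run of A. ES merged is the sum of ES-1 and ES-2, each collapsed alone. Named partners were those called in both ES assays (up to 12), otherwise called in ES merged and seen in both, and those called in ES indirect or MEF. Members and lists were chosen with earlier results of these data known. An alternative counted every line; others merged nearby ends, filtered fragments and strands, and left out a replicate.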

Additional observations from a re-analysis of the deposited data

How the results depend on the processing

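With every line counted, the read pairs between loci rose from 447 to 1490 in SNORA9 and from 504 to 1393 in SNORA57, the SNORA9 share ending at the 3′ end went from 85.7 to 93.7%, and called partners numbered 112 and 135, while calls over all RNA pairs rose from 0.895 to 6.34%. Ends within 3 nt merged left 105 and 235 read pairs between loci, flow cell 1 alone 249 and 301, and loci set by the differing bases 0 and 5, with 40% of the 5 in the chromosome 19 first order. The last drops every read pair undecided on a side, which left 2 of the 447 SNORA9 read pairs. The cause was not tested. The 4 called SNORA57 partners became 18 with a minimum of 2 read pairs, 2 with a minimum of 5, 2 with short and linker-bearing fragments left out and 9 with the loci counted as 1 RNA. The 22 SNORA9 partners became 33, 15, 16 and 22 under the same settings, under which 2.19%, 0.393%, 1.1% and 0.897% of all RNA pairs were called. Without replicate 1 or 2, read pairs between loci ranged from 47 to 400 (SNORA9) and 56 to 448 (SNORA57), the SNORA57 order from 78.6 to 89.3%, and the share ending at the 3′ end from 76.6 to 86.75% (SNORA9) and 9.64 to 18.5% (SNORA57, 10.6% merged). The share of fragments with the bases of the stated locus ranged from 99.6 to 99.8% (chromosome 19 RNA1), 29.3 to 52.6% (chromosome 8 RNA1) and 1.88 to 3.40% (chromosome 8 RNA2). Of the 22 called SNORA9 partners, 13 remained without replicate 1 and 12 without replicate 2, and of the 4 SNORA57 partners 0 and 3. In all, 65 values obtained under an alternative, some of them named above, stayed within the spread between ES-1 and ES-2 or, for counts, within 1.5 times. Another 24 moved further. Those that stayed include the SNORA9 order, which had no reversed line among all 1490 and so could not move. They also include values without replicate 2, which are those of ES-1 and make up most of the merged read pairs. No paired analysis was possible because no test compared groups that share replicate numbers. ES indirect and MEF held few read pairs of these loci, which limits what an absent order or partner shows there.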
